A study of Mus musculus with 18 samples.

Results

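The genes described here are 49 cell cycle and DNA replication genes, chosen by symbol: genes of the S, G2 and M phases, each looked up among the 26665 gene symbols measured in every library. All 49 symbols were found. Expression was measured by RNA sequencing of total RNA from sorted spleen T cells of C57BL/6 mice, in 18 libraries that form 6 groups of 3. Every mouse carried Foxp3EGFP, a green fluorescent reporter of Foxp3, the transcription factor that defines regulatory T cells (Treg). The groups titled WT came from Foxp3EGFP mice, and those titled CD28KO from CD28-/- Foxp3EGFP mice, which lack the costimulatory receptor CD28 in all cells from the germ line on. In each genotype 3 populations were sorted: Treg that carry the surface protein Nrp1 (titled tTreg), Treg without it (titled pTreg) and conventional T cells (Tconv). No treatment is named, and the age and sex of the mice are not given in the sources used here. Nothing in those sources says that the replicates came from separate mice, so the p-values below measure only the spread between these libraries.

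A cell copies its DNA in S phase and divides in M phase, and the genes for these steps are transcribed in waves. E2F transcription factors drive the genes of origin licensing and DNA synthesis toward S phase, and the DREAM and MuvB complexes with B-MYB and FOXM1 act on the genes of mitosis through CHR and CCAAT elements. In quiescent cells both waves are low. CD28 signals together with the antigen receptor to bring T cells into division, and Treg in the spleen are known to divide more often than naive conventional T cells. In bulk RNA these genes read the share of cycling cells, and fewer cycling cells cannot be told apart from less of these RNAs in each cell.

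The promoter windows of 5 of the genes show the letters that the S phase and mitotic classes are known for. Mcm5 stands for the licensing genes, and Cdk1 carries the letters of both classes. Top2a and Mki67 are mitotic genes whose level differed between populations, and Kif23 is a mitotic gene that was highest in Tconv. Windows run from 250 bases before to 50 bases after the RefSeq start on GRCm38.p6, 5′ to 3′ on the strand of the gene. They lie at chr8:75109259-75109558 on the plus strand for Mcm5, and on the minus strand at chr10:69352863-69353162 for Cdk1, chr11:99024140-99024439 for Top2a, chr7:135716330-135716629 for Mki67 and chr9:61946750-61947049 for Kif23. Capitals mark E2F letters (TTTCCCGC, TTTGGCGC, TTTCGCGC or TTTGCCGC), the CHR letters TTTGAA and the CCAAT letters, on either strand, so that a CHR on the other strand reads TTCAAA and a CCAAT reads ATTGG.
Mcm5: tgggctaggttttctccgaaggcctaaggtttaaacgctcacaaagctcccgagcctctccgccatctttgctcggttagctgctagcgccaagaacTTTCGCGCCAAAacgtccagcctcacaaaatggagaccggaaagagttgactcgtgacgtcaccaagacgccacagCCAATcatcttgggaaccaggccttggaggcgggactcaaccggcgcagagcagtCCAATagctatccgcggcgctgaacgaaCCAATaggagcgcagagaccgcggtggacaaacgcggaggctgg
Cdk1: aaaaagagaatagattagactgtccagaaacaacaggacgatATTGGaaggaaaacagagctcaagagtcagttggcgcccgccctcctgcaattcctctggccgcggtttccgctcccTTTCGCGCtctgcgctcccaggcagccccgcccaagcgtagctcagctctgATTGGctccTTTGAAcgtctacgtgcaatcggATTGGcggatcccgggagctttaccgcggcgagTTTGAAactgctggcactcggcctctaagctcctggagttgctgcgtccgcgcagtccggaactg
Top2a: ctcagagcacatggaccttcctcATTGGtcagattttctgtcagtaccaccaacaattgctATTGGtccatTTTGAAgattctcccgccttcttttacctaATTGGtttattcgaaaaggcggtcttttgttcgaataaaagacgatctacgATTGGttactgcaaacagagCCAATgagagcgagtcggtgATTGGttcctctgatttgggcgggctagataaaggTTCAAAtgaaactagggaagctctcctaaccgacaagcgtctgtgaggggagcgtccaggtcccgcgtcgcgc
Mki67: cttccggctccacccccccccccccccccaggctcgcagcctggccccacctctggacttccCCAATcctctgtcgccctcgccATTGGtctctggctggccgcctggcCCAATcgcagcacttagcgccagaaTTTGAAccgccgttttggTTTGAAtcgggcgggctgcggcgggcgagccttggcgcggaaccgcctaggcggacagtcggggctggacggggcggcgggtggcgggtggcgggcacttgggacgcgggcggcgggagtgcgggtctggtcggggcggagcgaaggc
Kif23: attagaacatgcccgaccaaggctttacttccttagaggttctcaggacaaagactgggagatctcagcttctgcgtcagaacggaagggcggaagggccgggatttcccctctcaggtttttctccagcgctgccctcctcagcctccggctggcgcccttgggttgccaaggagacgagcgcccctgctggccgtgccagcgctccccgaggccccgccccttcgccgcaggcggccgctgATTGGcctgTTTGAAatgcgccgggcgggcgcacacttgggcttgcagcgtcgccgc

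Counted from the start, the Mcm5 window held 2 overlapping E2F matches at -153 and -149 and no CHR. The Cdk1 window held 1 E2F match at -131 and CHR letters at -71 and -15. In Top2a the CHR letters lay at -179 and -23, in Mki67 at -116 and -98, and in Kif23 at 3, just inside the transcribed part. RefSeq windows were found for 40 of the 49 genes. E2F letters were in the windows of 6 of 13 licensing and synthesis genes (46.2%), of 0 of 18 mitotic genes and of 2.6% of 27025 genes in all. CHR letters were in 14 of 18 mitotic genes (77.8%), 2 of 13 licensing and synthesis genes (15.4%) and 20.2% of all genes. The windows of Tk1 and Birc5 held no E2F, CHR or CCAAT letters, and that of Rrm2 held CCAAT letters alone. CCAAT letters were in 31 of the 40 genes (77.5%) and in 41.1% of all. These matches describe the letters in the windows, not sites that a factor was measured to bind.

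The labels were checked first. Cd3e and Cd4, the antigen receptor chain and coreceptor of these cells, were at 306.2 FPKM or more and 112.2 FPKM or more in all 18 libraries. FPKM is a fragment count scaled to transcript length and to the mapped fragments of the library. Among defining genes of other cells, the highest value in any library was 1.825 FPKM for Cd8a (CD8 T cells), 0.948 for C1qa, 0.739 for Csf1r and 0.295 for Cd14 (macrophages and monocytes), and 0.691 for Mpo (granulocytes). The summed level of 16 myeloid genes ran from 15.7 to 90.5 FPKM and that of 13 red cell and platelet genes from 9.89 to 82.0, both highest in pTreg replicate 3 of the 2 genotypes. The part of such cells in the results was not tested. Cd28 itself stood between 31.5 and 116.7 FPKM over all libraries and was not lower in the CD28KO libraries, and which part of the gene the mutation removes cannot be read from a value for the whole gene. Foxp3 stood at 21.1 FPKM in CD28KO Tconv replicate 3, against 0.285 or less in the other Tconv libraries. Nrp1 stood at 12.75 FPKM and Ikzf2, a transcription factor high in the tTreg libraries, at 20.5 in that library, against at most 5.08 and 4.90 in the other Tconv libraries. That library, WT pTreg replicate 1 and WT Tconv replicate 1 also gave 26.9%, 20.8% and 19.4% of their FPKM to the short gene Mir5105, against 11.55% or less elsewhere, and WT pTreg replicate 1 had the lowest median level of the tested genes, 2.85 on the log2(FPKM + 1) scale. Counts of the 49 genes that change without these 3 libraries are also given that way, and a further alternative also leaves out CD28KO tTreg replicate 3.

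Most of the 49 genes were weakly expressed. Their mean over the 18 libraries was 10 FPKM or more for 12 genes, from 1 to under 10 for 23 and under 1 for 14. Pcna, the sliding clamp of DNA polymerases, was the highest at 108.9 FPKM, followed by Mcm6, a subunit of the replicative helicase, at 24.95. Ttk, a spindle checkpoint kinase, was the lowest at 0.158. The licensing genes supplied most of the 12 highest, together with Pcna, Cdk2, Stmn1, Cenpa and E2f2, while Cdk1 and the mitotic kinases Aurkb, Bub1 and Ttk had means under 1 FPKM. Plk1, a kinase that acts throughout mitosis, had a mean of 2.35 FPKM and reached 1 FPKM in all 18 libraries. Genes were tested if they reached 1 FPKM in at least 3 libraries, which 37 of the 49 did. Cdc6, Ccne2, Ccnb1, Cdk1, Brca1, Bub1, Ttk, Tpx2, Ect2, Nusap1, Cenpe and Cenpf did not and are described by their levels and by a fit without the filter.

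Wild-type tTreg carried the highest mean of 35 of the 49 genes, and WT Tconv that of 9. The lowest mean was in CD28KO Tconv for 26 genes and in CD28KO pTreg for 12. Of all tested genes 77% were higher in WT tTreg than in WT pTreg, and 78.1% lower in CD28KO Tconv than in WT Tconv. How all genes rank the 6 groups is not given here, so no order particular to these genes is read. The median over the 49 genes, on the log2(FPKM + 1) scale, ran from 1.62 to 1.82 in the WT tTreg libraries, from 1.48 to 1.58 in CD28KO tTreg, from 1.33 to 1.53 in WT pTreg and from 1.07 to 1.33 in CD28KO pTreg. In Tconv it ran from 1.31 to 2.03 in WT and from 1.07 to 1.22 in CD28KO. The WT and CD28KO ranges did not overlap in tTreg or in Tconv, and overlapped narrowly in pTreg. WT Tconv spread the most, with replicate 1 the highest library of all and replicate 3 under every WT tTreg and pTreg library.

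**Figure D1:**
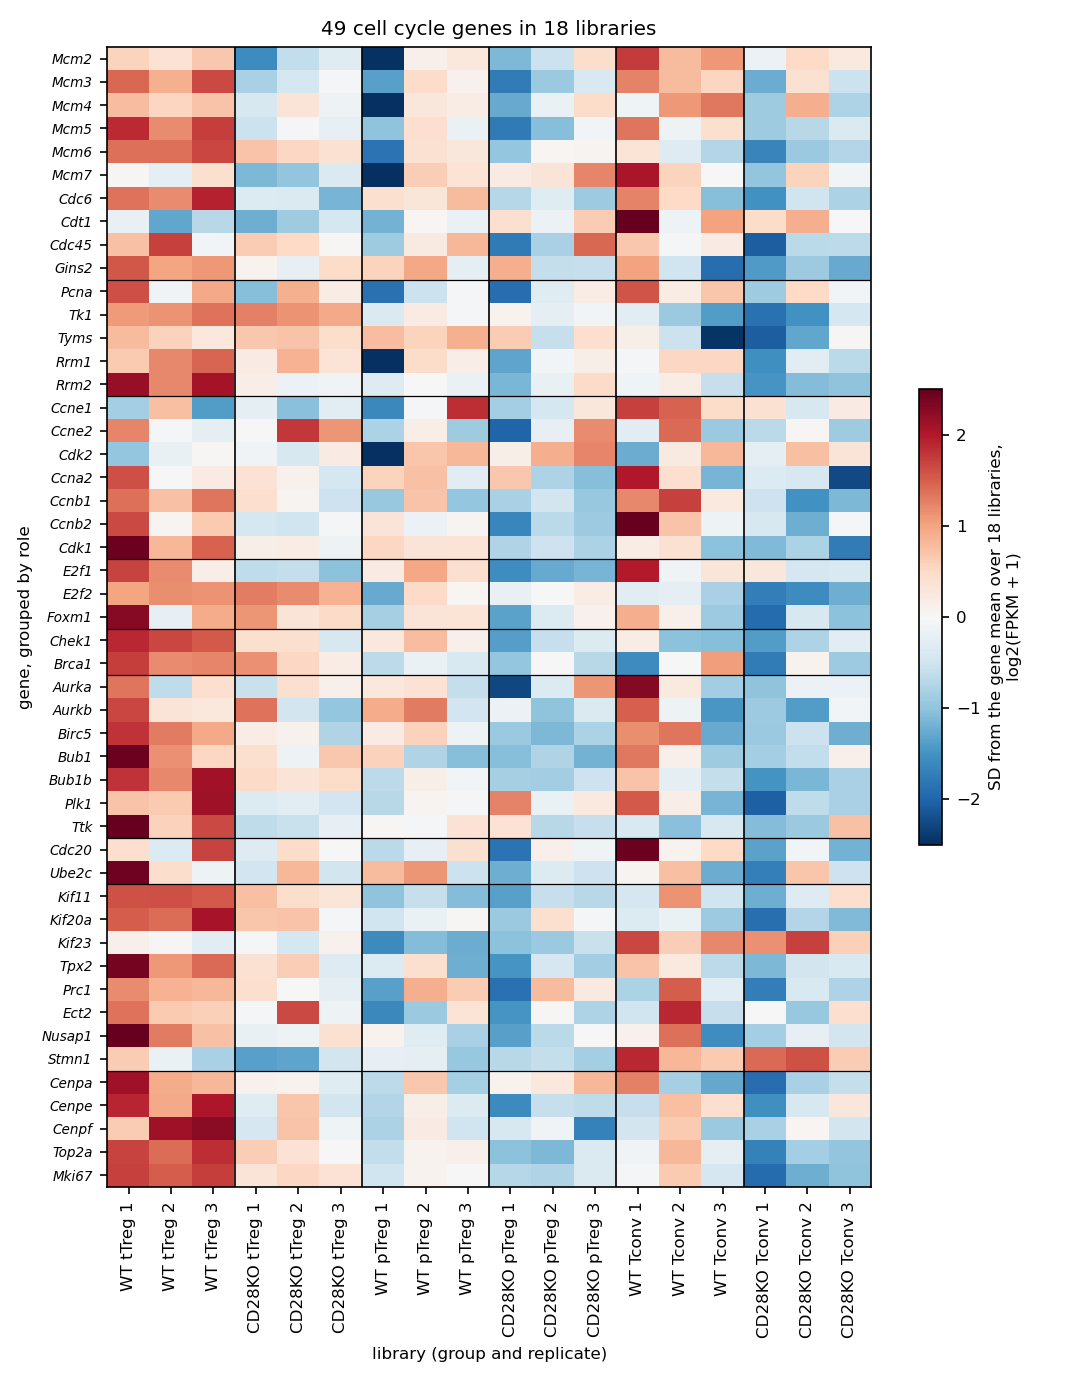
Level of each of the 49 genes (rows, grouped by role) in each of the 18 libraries (columns), as standard deviations from that gene's own mean over the libraries on the log2(FPKM + 1) scale, with red above and blue below the mean. The WT tTreg columns are red for most rows, while Kif23 and Stmn1 are red in the Tconv columns instead.

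**Figure D2:**
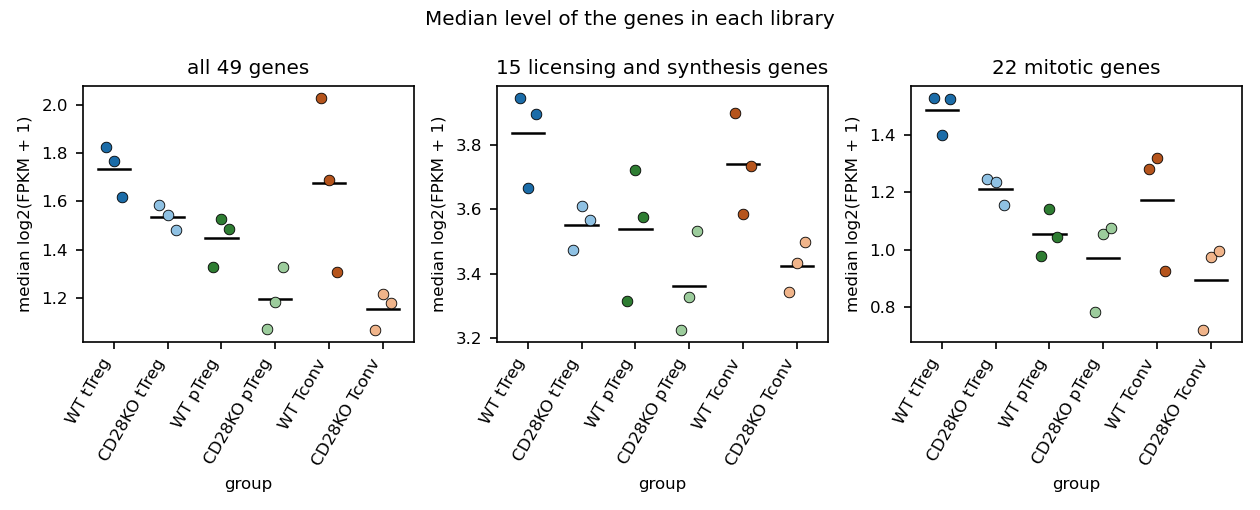
Median log2(FPKM + 1) over all 49 genes, the 15 licensing and synthesis genes and the 22 mitotic genes in each library (points), with the mean of 3 libraries as a line; the vertical axes do not start at 0. For all 49 genes the CD28KO points lie below the WT points in tTreg and in Tconv, and WT Tconv is the most spread group.

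Loss of CD28 went with lower values of most of these genes in each population, and no single gene passed the test. In tTreg 45 of the 49 genes were lower in CD28KO than in WT, and for 28 of them all 3 CD28KO libraries lay below all 3 WT libraries. The same held for 9.35% of genes with any signal and for 15.1% of the tested genes, and 61.8% of the tested genes were lower. No gene was higher without overlap (2.68% of the tested genes). In Tconv 46 of 49 were lower, 13 of them without overlap, beside 10.7% of genes with any signal. Of the tested genes 78.1% were lower and 18.2% lower without overlap. Without the 3 libraries, of which 2 are Tconv, 44 of 49 were lower and 19 (38.8%) lower without overlap, where 83.5% of the tested genes were lower and 38.9% lower without overlap. The median of the 37 tested was then -0.1909 and that of all tested genes -0.1918, so the shift in Tconv did not stand apart from the tested genes in those libraries. In pTreg 34 of 49 were lower, 6 without overlap (2.62% of genes with any signal), in a comparison where 16.3% of the tested genes were lower, 83.5% higher and 1.86% lower without overlap. The gene higher without overlap in pTreg was Kif23 (4.57% of the tested genes). WT pTreg replicate 1 is the library with the lowest median of the tested genes. Without the 3 libraries 43 of 49 genes were lower in CD28KO pTreg and 14 lower without overlap, beside 10% of genes with any signal, and 65.5% of the tested genes were lower. The median change of the 49 genes was -0.27 in tTreg, -0.09 in pTreg and -0.24 in Tconv, on the log2(FPKM + 1) scale. Among the 37 tested it was -0.29, -0.09 and -0.27, where that of all 12265 tested genes was -0.05, 0.19 and -0.16. This scale understates the change of genes near or under 1 FPKM. With quantile normalization, which sets all libraries to one distribution, 32, 32 and 29 of the 37 tested genes were lower. The share of all tested genes that were lower at that setting is not given here.

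None of the 37 was called by limma at an adjusted p under 0.05, where 0.204% of all tested genes were called in tTreg, 0.204% in pTreg and 0.791% in Tconv (0.0326% called higher in tTreg). Unadjusted p was under 0.05 for 11 genes in tTreg, 3 in pTreg and 8 in Tconv, all of them lower in CD28KO. Of all tested genes 3.82%, 4.44% and 9.66% had such a p, in either direction. Rrm2 came nearest in tTreg (-0.82 ± 0.18, SE, adjusted p = 0.110) and Mki67 in Tconv (-0.62 ± 0.14, adjusted p = 0.0666). Mki67 in Tconv passed with the replicate number as a block (adjusted p = 0.0312), whose numbers correlate in this comparison, and also without the 3 libraries (-0.72, adjusted p = 0.0270), where E2f2 passed as well (adjusted p = 0.0412). Leaving out WT Tconv replicate 3 or CD28KO Tconv replicate 3 alone gave adjusted p-values of 0.0476 and 0.04969 for Mki67. Its adjusted p ranged up to 0.597, in the fit of the 6 compared libraries. The CD28 effects were not shown to differ between populations: no gene was called for the differences of the effects between pTreg and tTreg, tTreg and Tconv, or pTreg and Tconv, with lowest adjusted p-values of 0.863, 0.9998 and 0.467 and background shares of 0.0245%, 0.122% and 0.0734%. At an unadjusted p under 0.05 the genes were Rrm2 for pTreg against tTreg and E2f2 for pTreg against Tconv, 1 in each, and 0 for tTreg against Tconv. These 3 differences share groups with each other.

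**Figure D3:**
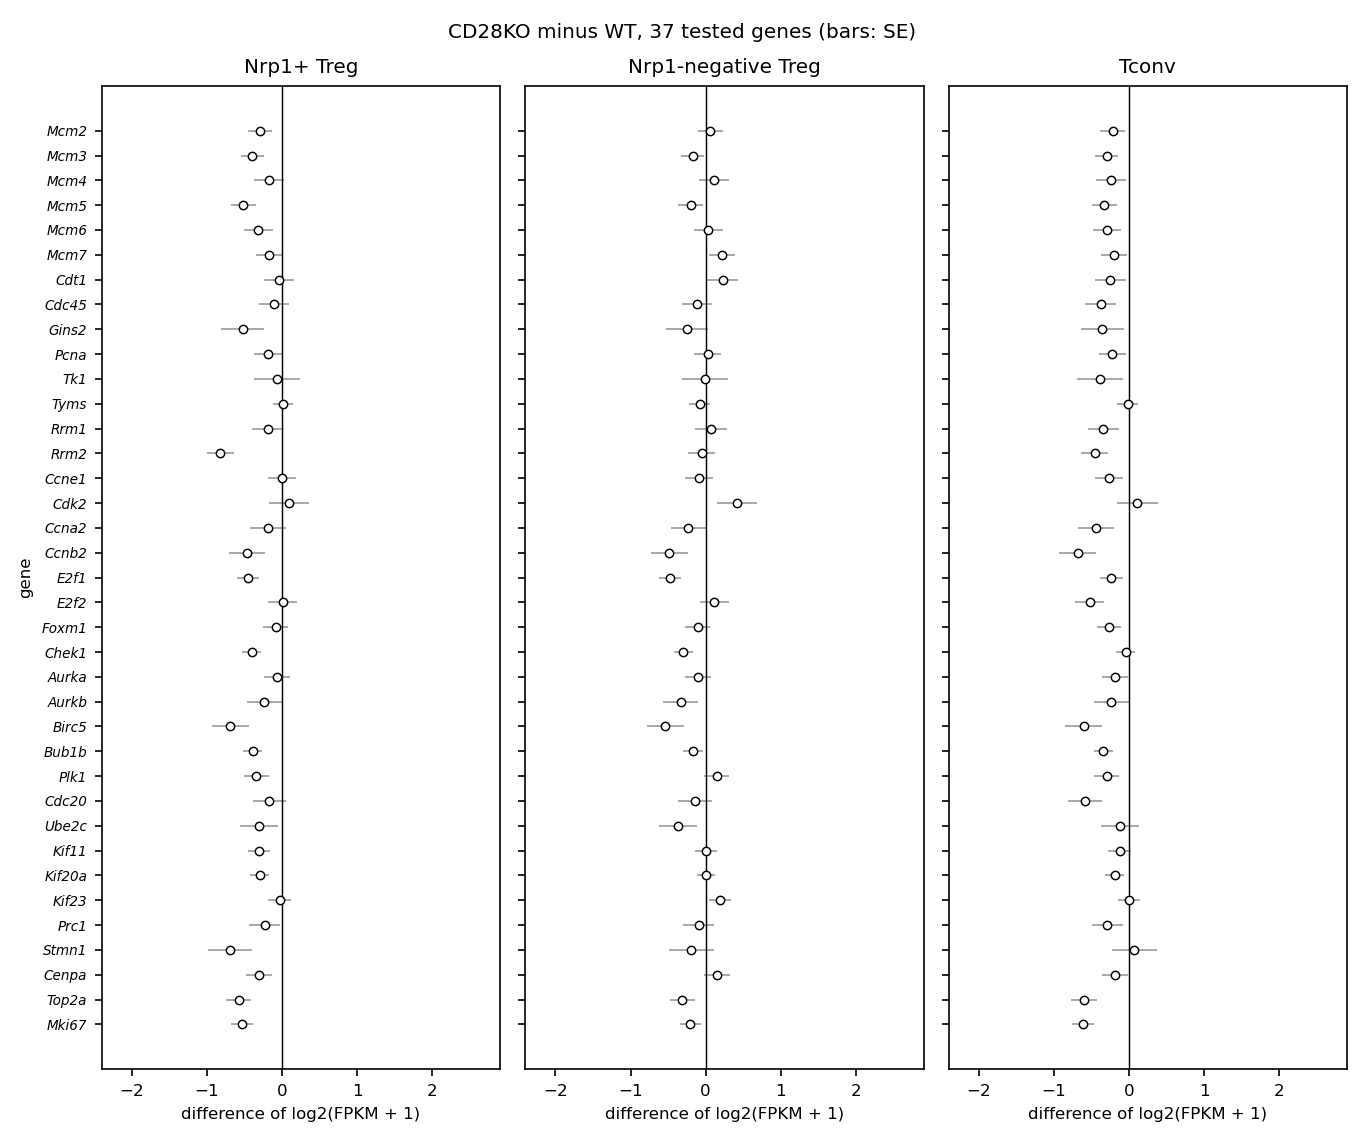
Difference of log2(FPKM + 1) between CD28KO and WT (horizontal axis) for the 37 tested genes in tTreg, pTreg and Tconv, with bars of 1 SE and open points for genes that were not called. In tTreg and Tconv nearly all points lie left of 0, with Rrm2 at -0.82 in tTreg and Mki67 at -0.62 in Tconv, while in pTreg they lie on both sides.

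Genes of T cell activation moved with the CD28 comparisons. Of 20 genes of activated and effector T cells, chosen with earlier results known, 20 were lower in CD28KO tTreg (median -0.54, 0 called), 16 in CD28KO pTreg (median -0.47, 2 called) and 19 in CD28KO Tconv (median -0.81, 7 called). Of all tested genes 61.8%, 16.3% and 78.1% were lower, with medians of -0.05, 0.19 and -0.16, and 0.171%, 0.179% and 0.791% were called lower. The summed level of the 20 genes ran from 1013 to 1153 FPKM in WT tTreg and from 659.9 to 822.5 in CD28KO tTreg, from 586.6 to 779.4 and from 469.7 to 564.4 in pTreg, and from 420.5 to 895.5 and from 138.8 to 270.5 in Tconv. The summed level of 9 B cell genes was 10.98 to 12.9 FPKM in WT tTreg and 6.05 to 6.39 in CD28KO tTreg. Most of that sum was Cd79b, at 9.88 ± 0.026 FPKM in WT tTreg and 4.62 ± 0.29 in CD28KO tTreg (SD, n = 3), and the defining genes Ms4a1 and Pax5 stayed at 0.224 FPKM or less in all libraries. The part of activated cells in the levels of the cell cycle genes was not tested.

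Between populations, tTreg stood above pTreg and Tconv for most of the genes, and single genes did pass the test. In WT mice 46 of the 49 were higher in tTreg than in pTreg, 30 without overlap, beside 9.3% of genes with any signal, and 77% of the tested genes were higher. Without the 3 libraries 44 were higher and 32 without overlap, beside 10.7% of genes with any signal. Of the tested genes 39.8% were then higher and 13.0% higher without overlap. Against Tconv 38 of 49 were higher, 17 without overlap, where 14.1% of the tested genes were higher without overlap and 52.6% were lower. Without the 3 libraries 41 were higher and 25 without overlap, where 22.2% of the tested genes were higher without overlap. In CD28KO mice 40 of 49 were higher in tTreg than in pTreg, 18 without overlap, beside 9.58% of genes with any signal. Of the tested genes 55.4% were lower. Against CD28KO Tconv 40 of 49 were higher in CD28KO tTreg, 20 without overlap, beside 17.5% of genes with any signal. Here 63.5% of the tested genes were higher and 26.5% higher without overlap. Without the 3 libraries 39 were higher in CD28KO tTreg than in Tconv and 25 without overlap, beside 20.3%. Then 63% of the tested genes were higher and 29.3% higher without overlap. The contrasts share groups, so they are not independent of each other. For WT pTreg against Tconv 37 of 49 were lower, 6 without overlap, where 78.4% of the tested genes were lower and 9.56% without overlap, but without the 3 libraries 25 were higher and 24 lower. In CD28KO 28 of 49 were higher in pTreg than in Tconv and 21 lower, where 72.1% of the tested genes were higher. Of the higher ones 7 did not overlap, and 10 without the 3 libraries, beside 15.1% and 18.5% of genes with any signal. Of the tested genes 26.4% and 31.1% were higher without overlap, so the 49 genes did not stand above them there. Quantile normalization lowered the counts to 24 of 37 tested genes above 0 for WT tTreg against pTreg and left 18 above and 19 below 0 for CD28KO tTreg against Tconv.

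In WT, 7 genes were higher in tTreg than in pTreg at an adjusted p under 0.05 (limma; 4.44% of all tested genes were, 0.489% were lower and 4.93% were called either way): Tk1, Rrm2, Top2a, Mki67, Kif11, Bub1b and Kif20a. Against WT Tconv 8 were higher (8.33% of all): Tk1, Rrm2, E2f2, Mki67, Top2a, Chek1, Bub1b and Kif20a, and Kif23 was lower (4.26% of all). In CD28KO, Tk1 was higher in tTreg than in pTreg (3.13% of all), and Tk1, E2f2, Mki67, Top2a, Bub1b and Kif20a were higher in tTreg than in Tconv (9.63% of all), where Stmn1 and Kif23 were lower (2.47% of all). In pTreg against Tconv, Stmn1 and Kif23 were lower in WT (2.44% of all; 2.05% were higher and 4.49% were called either way) and in CD28KO (1.05% of all), and Tk1 and E2f2 were higher in CD28KO (4.8% of all). The 1 gene of 37 in CD28KO tTreg against pTreg is a share near its background. So are Tk1 and E2f2 as the genes higher in CD28KO pTreg than in Tconv, and Kif23 as the gene lower in WT tTreg than in Tconv. With the replicate number as a block, 12 genes in place of 7 passed for WT tTreg against pTreg, adding Mcm5, Mcm6, Rrm1, E2f2 and Kif23. For WT tTreg against Tconv the block gave 14 in place of 9, adding Mcm6, Gins2 and Kif11 as higher and Cdt1 and Stmn1 as lower. The shares above are from the fit without the block. How many of all tested genes passed with the block is not given here, so no rise particular to these genes is read. Fitted on the 6 compared libraries alone, 0 of the 7 genes of WT tTreg against pTreg passed.

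**Figure D4:**
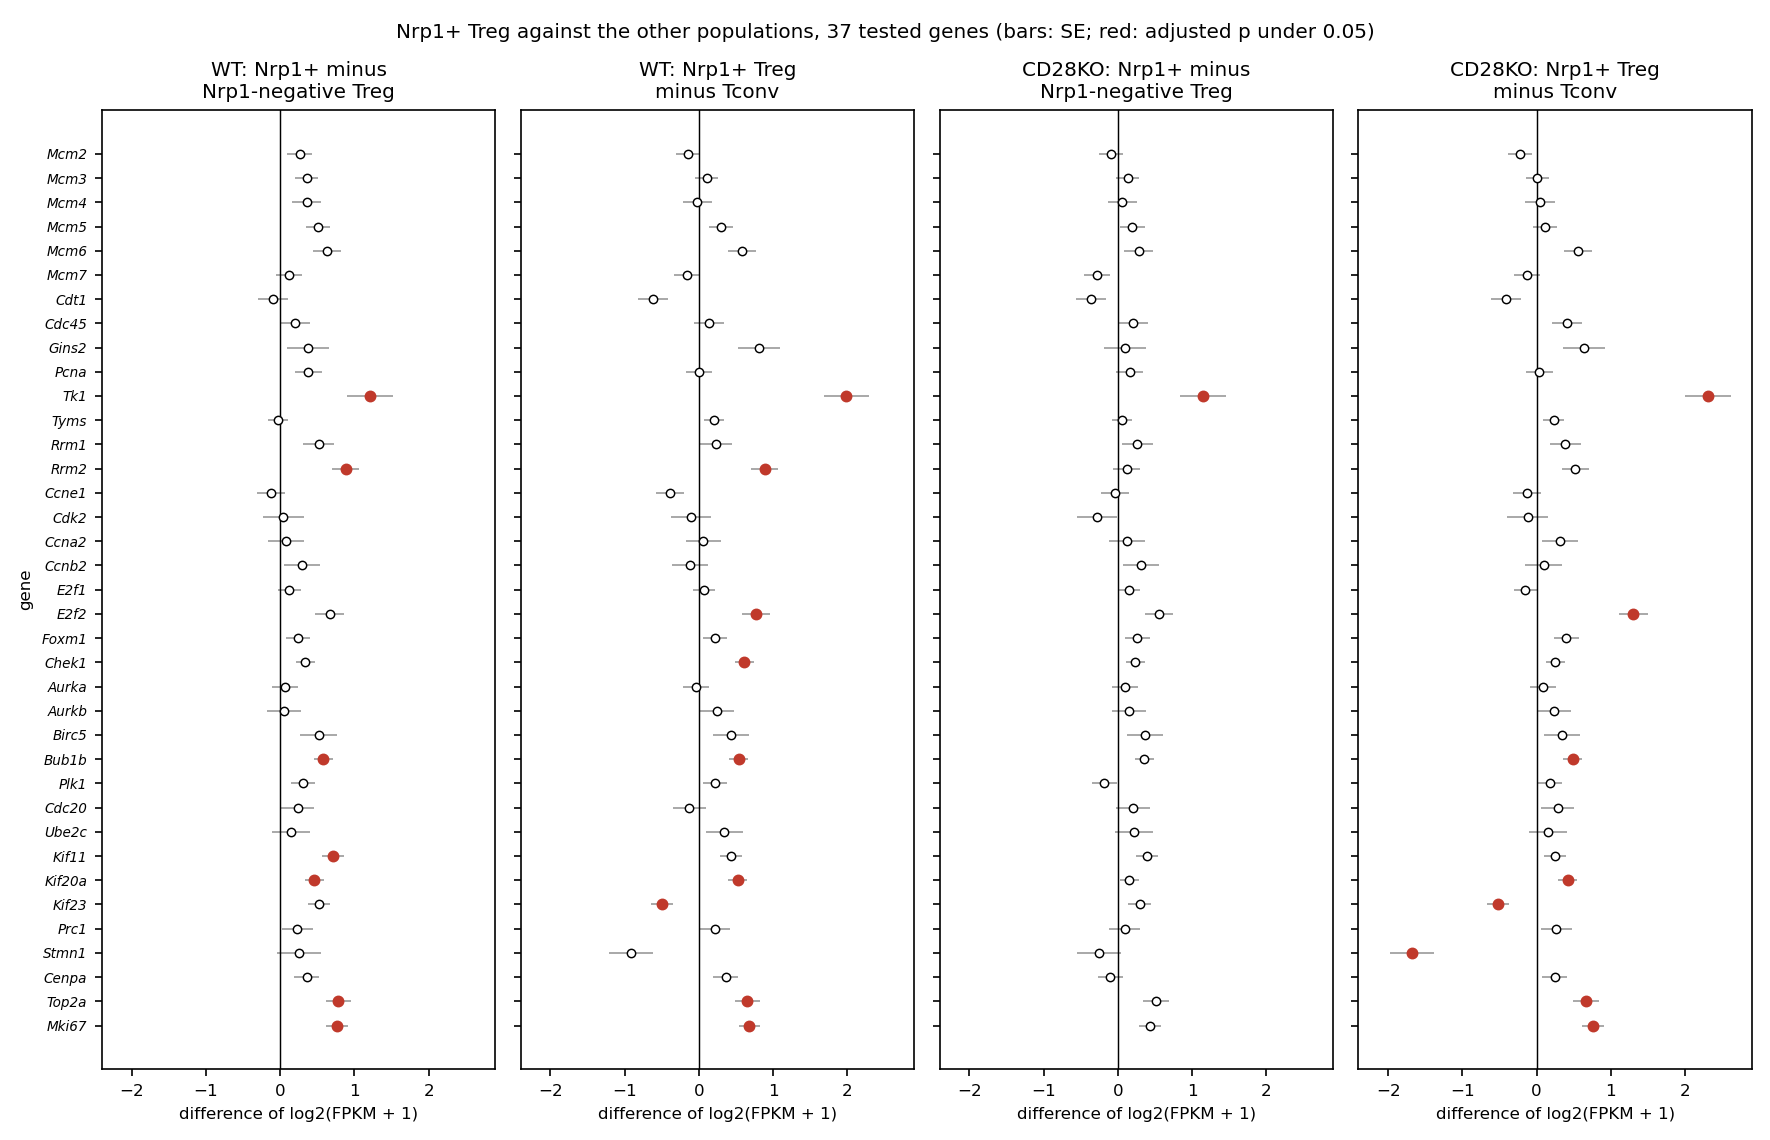
Difference of log2(FPKM + 1) between tTreg (Nrp1+ Treg) and pTreg (Nrp1-negative Treg) or Tconv (horizontal axis), in WT and in CD28KO, for the 37 tested genes, with bars of 1 SE and filled red points for adjusted p under 0.05. Tk1 lies farthest right in each panel, at 2.31 for CD28KO tTreg against Tconv, and Stmn1 farthest left in the Tconv panels, at -1.68 there.

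The genes of origin licensing and of the helicase load and start the replicative helicase before DNA synthesis. Mcm2 to Mcm7 form its ring, Cdc6 and Cdt1 load it, and Cdc45 and Gins2 activate it. Mcm5 stood at 16.6, 14.5 and 16.2 FPKM in WT tTreg (replicates 1 to 3) and at 10.1, 11.2 and 10.8 in CD28KO tTreg. It stood at 9.16, 12.4 and 10.9 in WT pTreg, 7.76, 9.04 and 11.1 in CD28KO pTreg, 14.95, 11.02 and 12.3 in WT Tconv and 9.38, 9.80 and 10.5 in CD28KO Tconv. The 3 WT tTreg values lay above those of CD28KO tTreg and of both pTreg groups, and the Tconv genotypes did not overlap either. The change with loss of CD28 was -0.52 ± 0.16 in tTreg (SE, adjusted p = 0.539) and -0.33 ± 0.16 in Tconv (adjusted p = 0.528), and tTreg exceeded pTreg in WT by 0.51 ± 0.16, which passed only with the block (adjusted p = 0.0434).

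Of the 9 tested licensing and helicase genes, 9 were lower in CD28KO tTreg, 9 in CD28KO Tconv and 4 in CD28KO pTreg, none of them called. Of all tested genes 61.8% were lower in tTreg, 78.1% in Tconv and 16.3% in pTreg. The summed level of the 9 genes, with Cdc6, was 146.0 ± 5.92 FPKM in WT tTreg and 118.9 ± 4.16 in CD28KO tTreg (SD, n = 3). In WT and CD28KO Tconv it was 141.6 ± 17.3 and 115.9 ± 10.8. The sums of the 2 genotypes did not overlap in tTreg or in Tconv, and did in pTreg. Cdt1, the loader that is degraded once S phase starts, ran the other way between populations: WT Tconv stood at 30.05, 15.3 and 19.8 FPKM and WT tTreg at 15.04, 11.6 and 13.4, a difference of tTreg minus Tconv of -0.62 (adjusted p = 0.0595). The highest of these came from WT Tconv replicate 1. Mcm2, Mcm4 and Mcm7 also had their highest mean in WT Tconv, at 20.97, 20.43 and 25.54 FPKM. Their means in WT tTreg were 18.85, 20.02 and 22.63 FPKM, and for Mcm2 these groups did not overlap. Mcm3, Mcm5, Mcm6, Cdc6, Cdc45 and Gins2 had their highest mean in WT tTreg.

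The 5 genes of DNA synthesis and nucleotide supply split into flat and variable genes. Pcna stood at 139.6, 105.9 and 125.5 FPKM in WT tTreg, 90.5, 124 and 111 in CD28KO tTreg, 79.4, 98.8 and 107 in WT pTreg and 78.9, 102 and 111 in CD28KO pTreg. In Tconv it stood at 139, 111 and 120 in WT and 93.3, 117 and 106 in CD28KO. Its groups overlapped in each CD28 comparison, where it differed by -0.19, 0.03 and -0.22 (SE 0.18 in each, none called). Tyms, the thymidylate synthase, lay between 6.21 and 8.83 FPKM in all 18 libraries.

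Tk1, the thymidine kinase that salvages thymidine in S phase, marked tTreg in both genotypes. It stood at 11.3, 11.7 and 13.9 FPKM in WT tTreg and at 12.9, 11.7 and 10.4 in CD28KO tTreg. It stood at 3.68, 5.85 and 4.86 in WT pTreg and 5.35, 4.08 and 4.73 in CD28KO pTreg, and in Tconv at 3.94, 2.23 and 1.34 in WT and 0.715, 1.16 and 3.48 in CD28KO. All 6 tTreg libraries lay above all other libraries, and the genotypes overlapped in each population. The 3.48 belongs to CD28KO Tconv replicate 3, the library with Foxp3 at 21.1 FPKM. Tk1 exceeded Tconv by 1.99 ± 0.31 in WT tTreg (adjusted p = 0.000192) and by 2.31 ± 0.31 in CD28KO tTreg (adjusted p = 5.2e-05), and both calls held in 14 of 14 alternatives. The calls against pTreg were weaker: 1.21 ± 0.31 in WT (adjusted p = 0.0272) was lost in 9 of 14 alternatives, among them the removal of any 1 library but WT pTreg replicate 2. That of 1.15 ± 0.31 in CD28KO (adjusted p = 0.0432) was lost in 8 of 14, among them the removal of any 1 of the 6 libraries. The excess of CD28KO pTreg over Tconv (1.16, adjusted p = 0.0325) was lost in 8 of 14, among them without any 1 library other than CD28KO Tconv replicate 3. With loss of CD28 Tk1 differed by -0.07 in tTreg, -0.01 in pTreg and -0.39 in Tconv, each with an SE of 0.31.

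Rrm2, the S phase subunit of ribonucleotide reductase, was high in WT tTreg alone. It stood at 7.68, 5.39 and 7.44 FPKM in WT tTreg and at 3.64, 3.23 and 3.31 in CD28KO tTreg. It stood at 2.99, 3.43 and 3.19 in WT pTreg, 2.09, 3.17 and 4.12 in CD28KO pTreg, 3.27, 3.69 and 2.69 in WT Tconv and 1.80, 2.16 and 2.23 in CD28KO Tconv. The 3 WT tTreg libraries lay above the other 15. Rrm2 was higher in WT tTreg than in pTreg by 0.89 ± 0.18 (adjusted p = 0.00651) and than in Tconv by 0.89 ± 0.18 (adjusted p = 0.002499). The call against Tconv held in 14 of 14 alternatives, and that against pTreg was lost with quantile normalization and in a fit of the 6 compared libraries. In CD28KO tTreg minus pTreg it differed by 0.12 (adjusted p = 0.929). Rrm1, the large subunit of the same enzyme, differed by -0.19 ± 0.21 between CD28KO and WT tTreg, with overlap.

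The cyclins and CDKs drive the phases: cyclin E with Cdk2 into S phase, cyclin A through it, and cyclin B with Cdk1 into mitosis. Cdk1 stood at 1.29, 0.718 and 0.926 FPKM in WT tTreg and 0.529, 0.537 and 0.456 in CD28KO tTreg. It stood at 0.627, 0.574 and 0.577 in WT pTreg, 0.307, 0.359 and 0.298 in CD28KO pTreg, 0.537, 0.591 and 0.244 in WT Tconv and 0.228, 0.296 and 0.0985 in CD28KO Tconv. CD28KO lay below WT without overlap in both Treg populations. Ccnb1 stood at 0.887, 0.698 and 0.874 in WT tTreg, 0.615, 0.528 and 0.387 in CD28KO tTreg, 0.297, 0.696 and 0.290 in WT pTreg and 0.323, 0.404 and 0.297 in CD28KO pTreg. In Tconv it stood at 0.832, 0.992 and 0.569 in WT and 0.391, 0.181 and 0.261 in CD28KO, so that its genotypes did not overlap in tTreg or Tconv. Both genes failed the filter, and in a fit without it their changes with loss of CD28 were -0.38 and -0.27 in tTreg, with adjusted p-values of 0.266 and 0.932. In that fit Cdk1 was higher in WT tTreg than in Tconv by 0.44 (adjusted p = 0.0130). Cdk2 was among the few genes with no lower mean in CD28KO: it differed by 0.09 in tTreg, 0.42 in pTreg and 0.11 in Tconv, each with overlap. In WT pTreg it stood at 10.63, 26.3 and 27.1 FPKM, with replicate 1 the lowest of all libraries. In CD28KO pTreg it stood at 23.1, 27.7 and 29.8 FPKM.

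Of the transcription factors, E2f1 and E2f2 activate the S phase genes and Foxm1 the mitotic ones. E2f2 stood at 13.8, 14.7 and 14.6 FPKM in WT tTreg and at 15.4, 14.8 and 13.2 in CD28KO tTreg. It stood at 5.79, 11.4 and 9.73 in WT pTreg, 8.84, 9.45 and 10.2 in CD28KO pTreg, 8.54, 8.64 and 6.94 in WT Tconv and 4.77, 5.12 and 5.91 in CD28KO Tconv. The 6 tTreg libraries were the highest 6, and CD28KO lay below WT without overlap in Tconv alone. E2f2 was higher in tTreg than in Tconv by 0.77 ± 0.19 in WT (adjusted p = 0.0105), lost without WT Tconv replicate 3, and by 1.30 ± 0.19 in CD28KO (adjusted p = 0.000124), which held in 14 of 14 alternatives. CD28KO pTreg exceeded Tconv by 0.74 ± 0.19 (adjusted p = 0.0271), a call lost without any 1 library other than CD28KO Tconv replicate 3. E2f1 differed from WT by -0.46 ± 0.15 in CD28KO tTreg and by -0.48 ± 0.15 in CD28KO pTreg, without overlap and with adjusted p-values of 0.602 and 0.535. Foxm1 differed by -0.08, -0.11 and -0.27, with overlap in each population.

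Chek1, the kinase of the replication checkpoint, stood at 1.24, 1.15 and 1.10 FPKM in WT tTreg and at 0.83 or less in the other 15 libraries. It reached 1 FPKM in WT tTreg only, and entered the test through that group, so its difference from WT Tconv (0.61, adjusted p = 0.00323) follows in part from the filter. Quantile normalization ended that call. Brca1, which repairs breaks at forks, stayed under 1 FPKM in every library.

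Among the kinases and checkpoint genes of mitosis, Birc5, the survivin subunit of the chromosomal passenger complex, stood at 4.03, 3.26 and 2.81 FPKM in WT tTreg and at 1.996, 1.93 and 1.22 in CD28KO tTreg. It stood at 2.02, 2.40 and 1.72 in WT pTreg and 1.10, 0.971 and 1.19 in CD28KO pTreg, and in Tconv at 3.07, 3.33 and 0.889 in WT and 1.09, 1.38 and 0.911 in CD28KO. The genotypes did not overlap in either Treg population, and WT Tconv replicate 3 lay below the CD28KO Tconv libraries. The changes were -0.69 ± 0.25, -0.54 ± 0.25 and -0.60 ± 0.25 in tTreg, pTreg and Tconv (adjusted p = 0.801, 0.770 and 0.462). Bub1b, which holds back anaphase until chromosomes attach, was higher in WT tTreg than in pTreg by 0.58 (adjusted p = 0.0120) and than in Tconv by 0.53 (adjusted p = 0.00959), both lost with quantile normalization and the first also with a pseudocount of 0.1. The summed level of the 7 genes of this role was 9.92 to 12.7 FPKM in WT tTreg and 6.56 to 8.03 in CD28KO tTreg, with no overlap. In Tconv the sums overlapped, at 4.86 to 11.4 in WT and 4.48 to 5.82 in CD28KO. In tTreg the sums of the damage checkpoint and the centromere and chromosome genes did not overlap either. Those of the DNA synthesis, cyclin and CDK, transcription factor, anaphase-promoting complex, and spindle and cytokinesis genes did overlap in tTreg. Cdc20 and Ube2c, the activator and the E2 enzyme of the anaphase-promoting complex, differed by -0.59 ± 0.22 (without overlap) and -0.12 ± 0.25 in Tconv and were not called.

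Of the spindle and cytokinesis genes, Kif23 and Stmn1 were highest in Tconv. Kif23, a kinesin of the central spindle, stood at 2.06, 1.98 and 1.72 FPKM in WT tTreg, 1.92, 1.61 and 2.04 in CD28KO tTreg, 0.872, 1.16 and 1.07 in WT pTreg and 1.21, 1.27 and 1.51 in CD28KO pTreg. In Tconv it stood at 3.74, 2.53 and 3.16 in WT and at 3.09, 3.82 and 2.498 in CD28KO. The 6 Tconv libraries were the highest and the 6 pTreg libraries the lowest, without overlap, and no difference between genotypes was called (-0.03, 0.19 and -0.00), though in pTreg CD28KO lay above WT without overlap. Kif23 was lower in pTreg than in Tconv by -1.02 ± 0.15 in WT (adjusted p = 0.000516), lost in a fit of the 6 compared libraries, and by -0.82 ± 0.15 in CD28KO (adjusted p = 0.00290), which held in 14 of 14 alternatives. Its difference between tTreg and Tconv, -0.50 in WT and -0.52 in CD28KO (adjusted p = 0.0385 and 0.0280), was lost in 9 and 5 of 14 alternatives, among them the removal of any 1 of 5 libraries in WT (not WT Tconv replicate 2) and of CD28KO tTreg or CD28KO Tconv replicate 1 or 2.

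Stmn1, stathmin, which destabilizes microtubules, followed Tconv as well. It stood at 25.97, 16.9 and 11.9 FPKM in WT tTreg, 8.66, 8.86 and 14.4 in CD28KO tTreg, 16.6, 16.4 and 10.9 in WT pTreg and 12.7, 13.3 and 11.6 in CD28KO pTreg. In Tconv it stood at 50.2, 29.0 and 26.1 in WT and 39.4, 43.0 and 25.97 in CD28KO. The Tconv libraries lay above the Treg libraries, with WT tTreg replicate 1 level with the lowest Tconv library. Stmn1 was lower than in Tconv by -1.68 ± 0.30 in CD28KO tTreg (adjusted p = 0.000739) and by -1.43 ± 0.30 in CD28KO pTreg (adjusted p = 0.00727), and both calls held in 14 of 14 alternatives. In WT pTreg the difference was -1.17 ± 0.30 (adjusted p = 0.0324), lost in 9 of 14, among them without WT pTreg replicate 2 or 3 or WT Tconv replicate 1 or 2. The other kinesins followed the main pattern: Kif11, which pushes the spindle poles apart, and Kif20a, which acts in cytokinesis, were higher in WT tTreg than in pTreg by 0.71 (adjusted p = 0.00725) and 0.46 (adjusted p = 0.0456). The call for Kif20a was lost with a pseudocount of 0.1, without a variance trend, with quantile normalization and without the 3 libraries. Tpx2, which activates Aurora A at the spindle, was higher there by 0.41 in the fit without the filter (adjusted p = 0.0457).

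Top2a, the topoisomerase that untangles chromosomes, and Mki67, the Ki-67 protein that coats mitotic chromosomes and is the usual protein marker of cycling cells, shared a pattern. Mki67 stood at 3.64, 3.38 and 3.66 FPKM in WT tTreg and at 2.07, 2.25 and 2.11 in CD28KO tTreg. It stood at 1.41, 1.86 and 1.80 in WT pTreg, 1.26, 1.24 and 1.51 in CD28KO pTreg, 1.76, 2.38 and 1.47 in WT Tconv and 0.584, 0.946 and 1.08 in CD28KO Tconv. The WT tTreg libraries lay above all others, and CD28KO lay below WT without overlap in tTreg and Tconv but not in pTreg. Its change with loss of CD28 was -0.54 ± 0.14 in tTreg (adjusted p = 0.324), -0.20 ± 0.14 in pTreg (adjusted p = 0.770) and -0.62 ± 0.14 in Tconv (adjusted p = 0.0666). Mki67 was higher in tTreg than in Tconv by 0.68 ± 0.14 in WT (adjusted p = 0.00354) and 0.76 ± 0.14 in CD28KO (adjusted p = 0.00131), calls that held in 14 of 14 alternatives, and than in pTreg by 0.76 ± 0.14 in WT (adjusted p = 0.00393), which failed only in the fit of the 6 compared libraries.

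Top2a stood at 6.06, 5.45 and 6.40 FPKM in WT tTreg and 4.08, 3.70 and 3.21 in CD28KO tTreg. It stood at 2.48, 3.32 and 3.38 in WT pTreg, 2.07, 1.98 and 2.77 in CD28KO pTreg, 3.09, 4.43 and 2.92 in WT Tconv and 1.503, 2.24 and 2.10 in CD28KO Tconv. As for Mki67, the 3 WT tTreg libraries were the highest 3, and the genotypes did not overlap in tTreg and Tconv (-0.58 ± 0.17 and -0.60 ± 0.17, adjusted p = 0.445 and 0.189). Top2a was higher in WT tTreg than in pTreg by 0.79 ± 0.17 (adjusted p = 0.0101) and than in Tconv by 0.65 ± 0.17 (adjusted p = 0.01605), and in CD28KO tTreg than in Tconv by 0.67 ± 0.17 (adjusted p = 0.0135). These calls depended on single libraries and on the processing. The first was lost without WT tTreg replicate 3 and in the fit of the 6 compared libraries. The second was lost without replicate 1 or 3 of either group and in the fit of the 6 compared libraries. The third was lost without CD28KO tTreg replicate 1 or 2 or CD28KO Tconv replicate 1, and with quantile normalization.

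**Figure D5:**
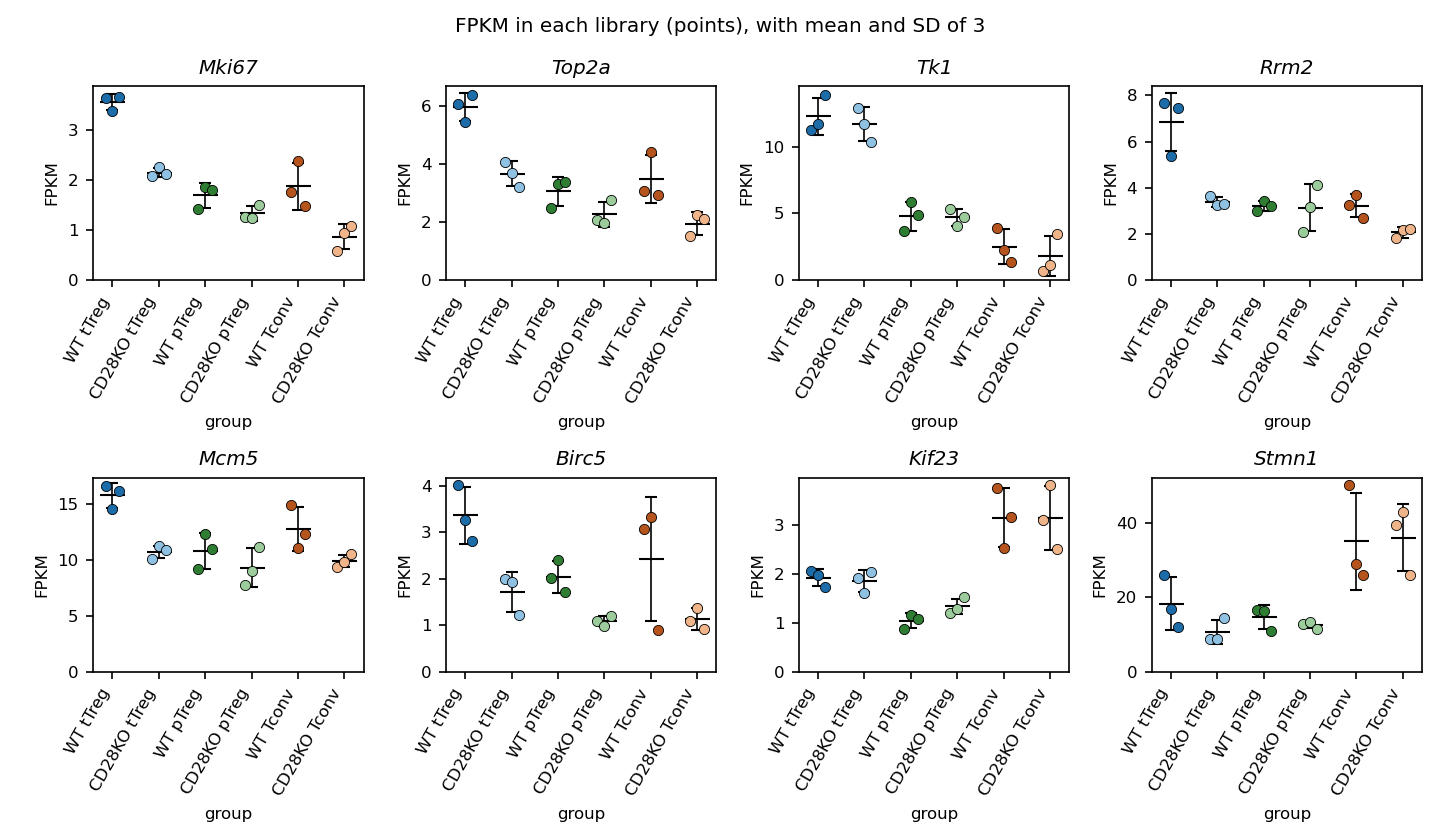
FPKM of Mki67, Top2a, Tk1, Rrm2, Mcm5, Birc5, Kif23 and Stmn1 in each library (points, by group), with the mean and SD of 3 as lines; each vertical axis starts at 0. Mki67, Top2a, Rrm2 and Mcm5 are highest in WT tTreg, Tk1 is high in tTreg of both genotypes, and Kif23 and Stmn1 are highest in Tconv.

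Other genes of the cell cycle were read from lists that hold none of the 49. Of 47 tested further S phase genes, 35 were lower in CD28KO tTreg, 43 in CD28KO Tconv and 14 in CD28KO pTreg, where 33 were higher (median 0.15). Of all tested genes 61.8% were lower in tTreg, 78.1% in Tconv and 16.3% in pTreg. In tTreg 1 of them was called: Dtl, the receptor of the ubiquitin ligase that removes Cdt1 in S phase. Dtl stood at 1.80, 1.36 and 1.44 FPKM in WT tTreg and at 0.645, 0.670 and 0.522 in CD28KO tTreg, a change of -0.65 ± 0.12 (adjusted p = 0.0427). It reached 1 FPKM in WT tTreg only, and entered the test through that group. Its calls here and against pTreg and Tconv therefore follow in part from the filter. It was also higher in WT tTreg than in pTreg by 0.69 and than in Tconv by 0.76 (adjusted p = 0.00277 and 0.000348), as was Uhrf1, which keeps DNA methylation through replication (0.92 and 0.76). These 2 of 47 called higher against pTreg are a share near the background of 4.44%. Pole2, a subunit of DNA polymerase epsilon, was lower in WT tTreg than in Tconv by -1.14. Of 43 tested further G2 and M genes, 36 were lower in CD28KO tTreg, 41 in CD28KO Tconv and 13 in CD28KO pTreg, where 30 were higher (median 0.11), with none called. In WT tTreg against pTreg 4 of the 43 were higher, beside 4.44% of all tested genes, with H2afz (1.46), Cdc25b (1.29), a phosphatase that activates CDKs, and Wee1 (0.72), a kinase that restrains Cdk1, the largest.

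None of 7 tested G1 cyclins and CDKs was called in any of the 9 comparisons of groups. Ccnd2 and Ccnd3, the D cyclins that CD28 and growth signals are known to raise, differed by -0.11 and 0.04 in tTreg, -0.01 and 0.18 in pTreg, and -0.07 and -0.08 in Tconv. Myc, the growth regulator, differed by -0.39 ± 0.21 in tTreg and was not called. The CDK inhibitor Cdkn1b (p27) differed by 0.25, 0.43 and 0.03 in the 3 populations and Btg1, an antiproliferative gene, by 0.01, 0.21 and -0.12, none called. For Ccnd2, Ccnd3, Cdkn1b and Btg1 the lowest of the 18 libraries was WT pTreg replicate 1, at 32.4, 53.6, 54.4 and 151.0 FPKM. WT pTreg replicates 2 and 3 stood at 90.17, 85.15, 101.3 and 243.5 FPKM or more, so the pTreg differences of these genes depend on that library. Cdkn1a (p21), which failed the filter, ranged from 0.0279 to 3.10 FPKM. Cdkn2c, the CDK4 and CDK6 inhibitor p18, fell in CD28KO Tconv: it stood at 5.51, 3.97 and 3.38 FPKM in WT and at 1.31, 2.42 and 1.69 in CD28KO (-0.91 ± 0.20, adjusted p = 0.0455). Klf2, a factor that keeps T cells quiescent, was lower in WT tTreg than in Tconv by -0.90 (adjusted p = 0.00515), with 3 of 13 quiescence genes called lower there (4.26% of all tested genes were), the others being Pik3ip1 (-1.23), which restrains PI3 kinase, and Tsc22d3 (-0.74). E2f3, another activating E2F, was higher in tTreg than in Tconv by 0.90 in WT and 0.65 in CD28KO. Of 13 tested genes of the p53 response none was called for loss of CD28, and Phlda3 and Sesn2 were higher in WT tTreg than in Tconv by 1.15 and 0.76.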

How the data were processed

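Sorted spleen T cells gave 18 RNA libraries (NEBNext Ultra kit, TriReagent extraction). The authors deposited 1 value per gene symbol and library. Trimmomatic 1, TopHat2 2.0.11, Cufflinks and the build GRCm38 appear in the submitters' processing notes. The deposited values were taken as FPKM from that tool and their range, since no header names a unit. Annotation and strand setting are not given in the sources used here. The depth in reads is unknown, so no counting interval is given.

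Titles gave the groups. The deposited FPKM were turned into log2(FPKM + 1) and compared with limma 3.58.1 (R 4.3.3), using a single mean for each of the 6 groups, every library, and a trended variance, which left 12 residual degrees of freedom (prior, median 4.06). The 12265 genes at 1 FPKM or more in at least 3 libraries were tested, two-sided, with Benjamini-Hochberg adjustment over these genes within each of 9 comparisons of groups and 3 differences of CD28 effects, and called at an adjusted p under 0.05. Errors are SE of the fit for changes and SD over 3 libraries for levels. The 49 genes and the other gene lists were chosen with earlier results of these data known. Values in every library are given for Mki67, Top2a, Pcna, Mcm5, Cdk1, Ccnb1, Birc5 and Stmn1, and for the 4 called genes with the largest change in each direction and comparison. From each other list up to 3 called genes per direction and comparison could be named, with Ccnd2, Ccnd3, Cdkn1a, Cdkn1b, Klf2, Btg1 and Myc whatever their p. The library values of Cdt1, Chek1, Dtl and Cdkn2c were added after their values were seen. So were the pTreg library values of Cdk2, Ccnd2, Ccnd3, Cdkn1b and Btg1.

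Replicate numbers in the titles were checked for pairing by correlating the deviations of same-numbered libraries from their group means. All 3 correlations exceeded 0.1 in 6 of 9 comparisons, and 17 of 18 libraries correlated best with their own number; the pairing is read from the data and not from a stated design. It did not hold for CD28KO against WT in tTreg or pTreg, nor for WT pTreg against Tconv. Alternatives were a pseudocount of 0.1, no filter, no variance trend, quantile normalization, the replicate block, a fit of the compared groups only, leaving out each library, and leaving out 3 or 4 libraries together. The fit was tested on simulated data. Promoter windows are from RefSeq (GRCm38.p6). Some marker genes are not reported here.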

Additional observations from a re-analysis of the deposited data

How the results depend on the processing

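Quantile normalization moved the median to -0.22 for CD28KO against WT pTreg, 0.092 for WT tTreg against pTreg, -0.0079 for CD28KO tTreg against Tconv (0.41 with a pseudocount of 0.1) and -0.052 for CD28KO pTreg against Tconv, the last 2 from above 0. A pseudocount of 0.1 moved that of CD28KO tTreg against pTreg to 0.27. The median difference of CD28 effects between pTreg and tTreg moved to 0.036 with quantile normalization, 0.096 without 3 libraries and 0.080 without 4, and between pTreg and Tconv to -0.0011, 0.041 and 0.041. With the replicate block, which pairs libraries by number, 1 gene passed for CD28KO against WT Tconv, 12 for WT tTreg against pTreg and 14 for WT tTreg against Tconv. These counts and those that follow are given without the share of all tested genes under the same setting. Without 3 or 4 libraries 2 and 1 genes passed for CD28KO against WT Tconv, and 5 and 2 for CD28KO tTreg against pTreg. For the latter 0 passed with a pseudocount of 0.1 or no filter, 3 with quantile normalization and 3 in a fit of the compared groups. For WT tTreg against pTreg 4 passed with a pseudocount of 0.1 and 0 in a fit of the compared groups. For WT pTreg against Tconv 1 passed with no filter, 1 with quantile normalization and 0 in a fit of the compared groups. Leaving out 1 library at a time gave from 0 to 2 called genes for CD28KO against WT Tconv, 3 to 8 for WT tTreg against pTreg, 5 to 11 for WT tTreg against Tconv, 1 to 2 for WT pTreg against Tconv, 0 to 0 for CD28KO tTreg against pTreg, 4 to 7 for CD28KO tTreg against Tconv and 2 to 4 for CD28KO pTreg against Tconv. It moved the median from -0.20 to 0.053 for CD28KO against WT pTreg and from 0.096 to 0.29 for the difference of effects between pTreg and tTreg. The low end in the first is WT pTreg replicate 1 left out and the high end CD28KO pTreg replicate 1. The cause of these shifts was not tested. Of the named genes' values, 1765 kept direction and side of the threshold, 26 passed it newly and 69 no longer passed it. The depth in reads is unknown, so what it limits was not tested, and the pseudocount shrinks the changes of genes near 1 FPKM.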
